A study of Mus musculus with 62 samples.

Results

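The cauda epididymis of the sons of germ-free fathers was compared with that of specific pathogen free (SPF) controls, gene by gene, in polyadenylated RNA from whole tissue. The comparison used 7 of the 62 libraries in the study, 3 from GF × SPF F1 males and 4 from SPF males, and covered every gene whose level averaged 1 TPM or more in those 7 libraries, which was 12784 of the 23845 genes listed. TPM is a gene's share of a library's transcripts, corrected for transcript length. All were adult males labelled wild type, 8 to 14 weeks of age, and the SPF and GF stocks were C57BL/6. SPF males came from purchased stock and were reared conventionally. F1 males had a germ-free (GF) father from an isolator colony and an SPF mother, and were bred and raised in conventional housing, so that they themselves had met microbes. Each library is the cauda of 1 male as far as the labels say, and litters are not given, so F1 males may share a father or a litter. The whole caudae include the duct epithelium, the muscle coat, interstitium, surface lining and stored sperm, and in such tissue more cells of a type and more RNA per cell cannot be told apart. Further groups were read for reference: 5 caudae of another SPF set (SPF set 2), 3 caudae of recolonized GF mice, which descend from a GF colony bred conventionally for many generations and were deposited with SPF set 2 as their controls, 5 GF caudae, and the caput of 4 SPF and 3 F1 males. A fit of all cauda groups also held 3 caudae of Rag2 knockout mice, which lack T and B cells.

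The cauda is the last stretch of the epididymal duct, where sperm are stored behind a thick coat of smooth muscle. Its outer surface is covered by mesothelium, a flat epithelial lining shared with the body cavities that makes mesothelin, uroplakins and the transcription factor WT1. Immediate-early genes are transcription factors, phosphatases and mRNA decay factors whose transcripts appear soon after a cell meets a growth factor, stretch, injury or tissue handling. Macrophages, mast cells and complement proteins are normal constituents of the interstitium around the duct.

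The libraries were compared on log2(TPM + 1), and a gene was called when its difference passed a Benjamini-Hochberg adjusted p of at most 0.05 in limma and a fold of at least 1.5. Differences are given as log2 fold changes, F1 over SPF on the log2(TPM + 1) scale, which understate the change of low genes, with their standard error (SE). Before any gene is described, some libraries stood apart. Transcripts of skeletal muscle, which the cauda does not contain, were high in F1 replicates 1 and 2. The summed TPM of 17 such genes, a list drawn up after its values were seen, was 2428 in F1 replicate 1, 7297 in F1 replicate 2 and 409.2 in F1 replicate 3, against 286.5 to 522.4 in the SPF libraries. It was also high in SPF set 2 replicate 1 (2725) and recolonized replicate 2 (3939). Mylpf, a myosin light chain of fast muscle fibres, was at 3.40 to 8.76 TPM in SPF and 352, 854 and 6.34 TPM in F1. Of the 16 muscle genes that were tested, 0 were called, beside 0.188% of all tested genes. F1 replicate 1 also had the highest mean level of caput epithelium markers, 4.75 on the log2(TPM + 1) scale against 2.00 to 2.57 in the other 6 libraries, and of adipocyte markers, 5.04 against 1.91 to 3.43. SPF replicate 4 had the lowest mean level of sperm transcripts, 1.37 against 2.71 to 5.02 in the others, and the fewest genes above 0, 15522 against 16498 to 17331. Their part in the results was not tested, and results are therefore also given for F1 replicate 3 alone or without a library where that matters.

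In the F1 cauda 22 genes rose and 2 fell. The calls made up 0.172% of tested genes for higher and 0.0156% for lower. Of the 24 genes, 5 were on the fixed list of mesothelial markers, 2 were globins of the erythroid list, 1 was complement C3 and 1 the immediate-early phosphatase Dusp1, and the others were on none of the fixed lists. At an unadjusted p under 0.05, 2689 genes were higher and 310 lower. Every F1 library lay above every SPF library for 2817 genes, 22.0% of those tested, and below for 391 genes, 3.06%. The median log2 fold change over all tested genes was 0.28, with quartiles of 0.05 and 0.52, and 79.29% of genes had a positive value. After each library was rescaled by the median ratio of its genes, that median was -0.03. Of the 24 genes, 15 were called after rescaling, when 16 genes rose and 3 fell. The 9 lost on rescaling were Arsa, Cyp2s1, Dusp1, Evi5l, Fads6, Mid1, Npy, Tep1 and Upk1b, with adjusted p between 0.056 and 0.132.

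**Figure D1:**
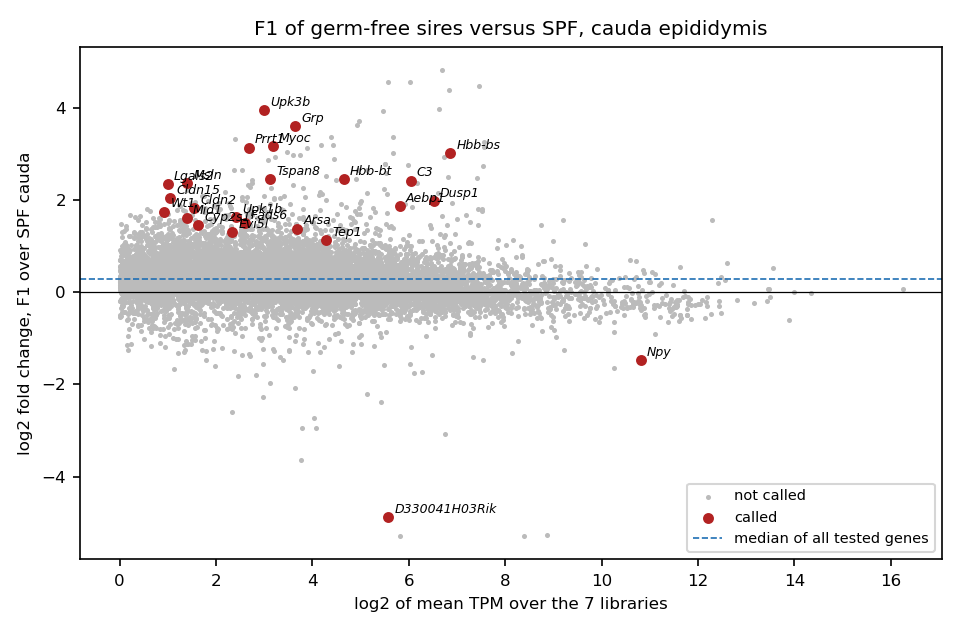
Log2 fold change in F1 over SPF cauda on the y axis against log2 of the mean TPM on the x axis, 1 point per tested gene, with called genes in red and the dashed line at the median of all genes. The 22 called genes above 0 run from Tep1 at 1.12 to Upk3b at 3.94, the 2 below are Npy at -1.47 and D330041H03Rik at -4.88, and the cloud as a whole sits at 0.28.

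The number of calls moved with each library. Without SPF replicate 1, 6 genes rose and 0 fell; without SPF replicate 2, 6 and 2; without SPF replicate 3, 2 and 1; and without SPF replicate 4, 3 and 0. Without F1 replicate 1 the counts were 7 and 1, without F1 replicate 2 they were 2 and 0, and without F1 replicate 3 they were 12 and 1. Upk3b and Prrt1 were called in all 7 of these fits, Lgals2 in 3, and each of the other 21 genes in at most 1. All 24 kept their direction in the 7 fits. With F1 replicate 3 as the only F1 library, the lone sample being assumed to vary like the SPF libraries, 1 gene rose and 2 fell, and D330041H03Rik was the 1 of the 24 genes among them. SPF set 2 gave another reference. Against its 5 caudae, 1782 genes rose and 178 fell in the F1, 13.7% and 1.37% of 12961 tested genes, and 19 of the 24 were called. The 5 that were not were Upk3b, Msln, Cldn15, Upk1b and Npy. The same F1 libraries entered both comparisons, so calls against SPF set 2 are not independent of the 24. Which run or day each group belonged to is not given in the sources used here, so group and run cannot be told apart.

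Mesothelial markers made up 5 of the 22 genes that rose. Of 15 fixed markers, 12 reached the expression filter, 5 of these rose (Upk3b, Msln, Cldn15, Wt1 and Upk1b) and the other 7 were not called. All 12 had a positive log2 fold change, beside 79.29% of all genes, with a median of 1.65 beside 0.28. In 8 of 12 (66.7%) every F1 library lay above every SPF library, beside 22.0% of all genes. The whole list, untested members included, summed to 401.4 to 634.4 TPM in the SPF libraries and 679.4 to 905.4 TPM in the F1 libraries, most of it keratin 19. Fixed members Gpm6a, Bnc1 and Muc16 were under the filter.

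Upk3b, a uroplakin of the urothelium and the mesothelial surface (chr5:136038496-136044993, mm10), had the largest rise of all called genes. It was at 0.53, 0.23, 0.16 and 0 TPM in SPF replicates 1 to 4 and at 18.5, 23.9 and 12.4 TPM in F1 replicates 1 to 3. The F1 libraries were thus well clear of the SPF libraries, with a log2 fold change of 3.94 (SE 0.25, adjusted p = 0.0037). SPF set 2 held 3.12, 4.18, 0.39, 5.75 and 15.9 TPM, and 1 of its 5 libraries lay above the lowest F1 library. Against SPF set 2 the log2 fold change of Upk3b was 1.88 (adjusted p = 0.072), so that the call was lost. The 5 GF caudae held 0 to 1.63 TPM.

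Msln, the gene of mesothelin (chr17:25748613-25754378), was at 0.98, 0.07, 0.08 and 0.14 TPM in the SPF libraries and 7.72, 5.77 and 3.74 TPM in the F1 libraries. The groups did not overlap (log2 fold change 2.36, SE 0.30, adjusted p = 0.044). Cldn15, a claudin of leaky tight junctions (chr5:136967869-136975845), was at 0.73, 0.22, 0.09 and 0.16 TPM in SPF and 4.21, 6.17 and 2.88 TPM in F1. Again no F1 library reached down to SPF (log2 fold change 2.04, SE 0.26, adjusted p = 0.044). Wt1, the transcription factor of mesothelium and of Sertoli cells (chr2:105126529-105173614), rose from 0.85, 0.35, 0.58 and 0.05 TPM to 2.89, 4.50 and 4.10 TPM (log2 fold change 1.74, SE 0.23, adjusted p = 0.050). Upk1b, a tetraspanin partner of the uroplakins (chr16:38773182-38800203), rose from 3.24, 1.58, 2.40 and 2.24 TPM to 9.26, 11.1 and 7.80 TPM (log2 fold change 1.63, SE 0.21, adjusted p = 0.044).

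In SPF set 2 the mesothelial genes varied together with 1 library: replicate 5 held 15.9 TPM of Upk3b, 6.61 TPM of Msln, 4.03 TPM of Cldn15 and 9.53 TPM of Upk1b, all within the F1 ranges. With SPF set 2 as the control, 3 mesothelial markers were called higher, beside 13.7% of all genes, Wt1 among them (log2 fold change 1.38, adjusted p = 0.0092), while Msln (1.40, adjusted p = 0.082), Cldn15 (1.18, adjusted p = 0.059) and Upk1b (0.97, adjusted p = 0.058) were not. Among the markers that did not pass the test, Lrrn4, a membrane protein of mesothelial cells, was at 0 to 0.09 TPM in SPF and 1.36, 5.36 and 1.29 TPM in F1 (log2 fold change 1.66, adjusted p = 0.088). Rspo1, a Wnt pathway agonist, was at 0.92 to 3.74 TPM and 7.32, 10.2 and 6.53 TPM (1.68, adjusted p = 0.082). For both genes the groups did not overlap.

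The abundant members differed less. Krt19, a keratin of simple epithelia that the duct also expresses, was at 279, 300.3, 486 and 508 TPM in SPF and 666, 704 and 520 TPM in F1 (log2 fold change 0.72, adjusted p = 0.17). Its F1 libraries lay above the SPF libraries by a narrow margin. Krt7 (0.27, adjusted p = 0.39) and Aldh1a2, which makes retinoic acid (0.26, adjusted p = 0.57), overlapped between groups, and both values were negative after rescaling. Leaving out any 1 library left 1 called marker, except that 2 were called without SPF replicate 1, and the median without F1 replicate 1 was 1.68. For F1 replicate 3 alone the median was 1.01.

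**Figure D2:**
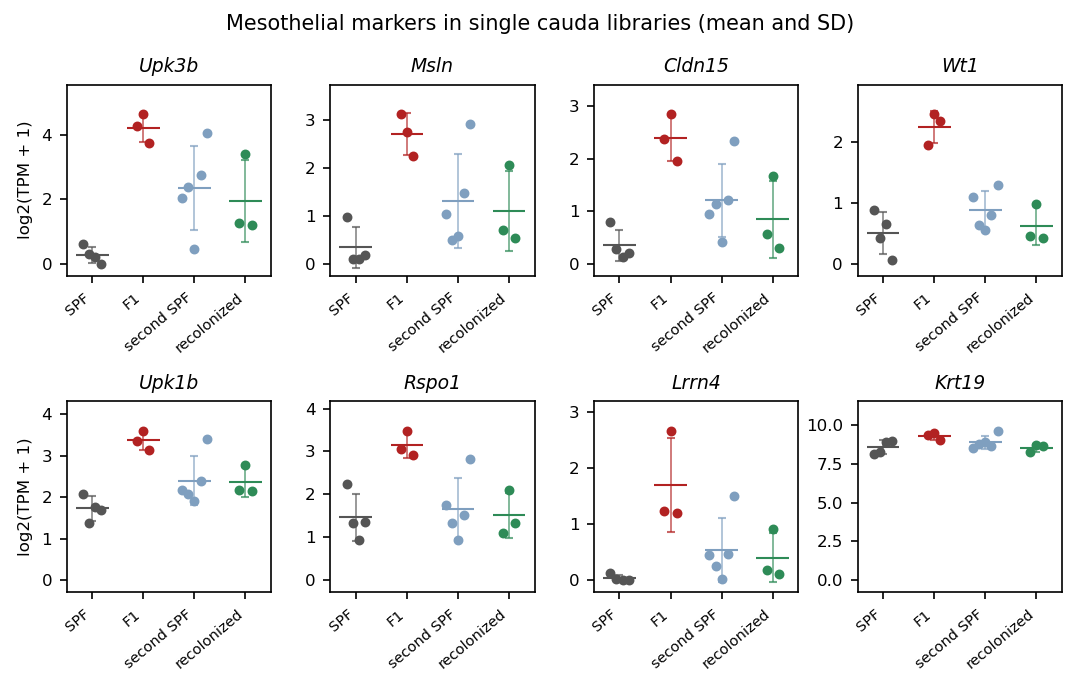
Mesothelial genes in single cauda libraries, log2(TPM + 1) on the y axis, SPF, F1, SPF set 2 and recolonized on the x axis, 1 point per library with the mean and SD of each group. Upk3b lay between 12.4 and 23.9 TPM in F1 and between 0 and 0.53 TPM in SPF, while SPF set 2 ran from 0.39 to 15.9 TPM.

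Grp encodes gastrin-releasing peptide, a neuropeptide that contracts smooth muscle and stimulates secretion. It was at 0.67, 1.48, 2.72 and 0.55 TPM in SPF and 32.5, 33.5 and 15.8 TPM in F1 (log2 fold change 3.60, SE 0.38, adjusted p = 0.030). Neither SPF set 2 (1.29 to 8.48 TPM) nor GF (0.95 to 2.26 TPM) reached the F1 levels. Prrt1, a proline-rich membrane protein associated with glutamate receptors in brain (chr17:34629365-34633134), was at 0.97, 0.67, 0.81 and 0.36 TPM in SPF and 10.5, 15.5 and 16.0 TPM in F1 (log2 fold change 3.13, SE 0.21, adjusted p = 0.0037). It was called in all fits that left out 1 library and against SPF set 2, where the libraries held 0.12 to 2.40 TPM.

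Myoc encodes myocilin, a secreted glycoprotein best known from the trabecular meshwork of the eye. Its levels were 1.88, 0.53, 0.72 and 1.52 TPM in SPF and 9.33, 30.0 and 19.4 TPM in F1 (log2 fold change 3.16, SE 0.40, adjusted p = 0.044). Tspan8, a tetraspanin of epithelial membranes and exosomes, rose from 2.72, 1.37, 3.16 and 1.92 TPM to 24.3, 15.1 and 12.2 TPM (log2 fold change 2.45, SE 0.29, adjusted p = 0.039). Lgals2, which encodes the sugar-binding lectin galectin-2, was listed at 0, 0.34, 0 and 0 TPM in SPF and at 5.96, 4.50 and 3.18 TPM in F1 (log2 fold change 2.34, SE 0.21, adjusted p = 0.029). In all 3 genes the groups were clear of each other, and all 3 were also called against SPF set 2, with log2 fold changes of 1.94, 1.38 and 1.64.

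Neuropeptide Y, encoded by Npy, is a vasoconstrictor and appetite peptide of sympathetic nerves and is made in large amounts in the cauda. Npy (chr6:49822710-49829507) fell from 2163, 2964, 2212 and 2597 TPM in SPF to 1064, 748 and 881 TPM in F1 (log2 fold change -1.47, SE 0.19, adjusted p = 0.044). The fall depended on the SPF set: SPF set 2 held 732 to 1466 TPM, overlapping the F1 range, and the log2 fold change against it was -0.19 (adjusted p = 0.60). GF caudae held 1921 to 3086 TPM. The other gene that fell was D330041H03Rik, a RIKEN cDNA locus (chr17:24409481-24414513). It went from 79.5, 89.7, 63.0 and 93.7 TPM to 0, 4.22 and 3.09 TPM (log2 fold change -4.88, SE 0.53, adjusted p = 0.030), and it was also called against SPF set 2, at 23.1 to 88.4 TPM (-4.33, adjusted p = 0.0061). Of the recolonized caudae, 1 was also listed at 0 TPM and the other 2 held 30.3 and 49.1 TPM.

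In the stress response, the immediate-early genes had positive log2 fold changes throughout, but only Dusp1 passed the test. Of 36 fixed genes 33 were tested. All 33 had a positive log2 fold change, beside 79.29% of all genes, with a median of 1.32 beside 0.28 (1.01 after rescaling). In 20 of 33 (60.6%) every F1 library lay above every SPF library, beside 22.0% of all genes. The whole list summed to 963.4 to 1665 TPM in SPF and 2573 to 3575 TPM in F1. In SPF set 2 the sum was 432.5 to 799.6 TPM, below every library of the SPF set used here, and in the recolonized caudae it was 566.7 to 766.7 TPM. With SPF set 2 as the control 29 of 32 tested immediate-early genes were called higher in F1, beside 13.7% of all genes.

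Dusp1, a phosphatase that switches off the MAP kinases p38 and JNK (chr17:26505591-26508472), was at 47.8, 40.3, 29.8 and 43.5 TPM in SPF and 166, 187 and 128 TPM in F1. The lowest F1 library was more than the highest SPF library by a wide margin, with a log2 fold change of 1.97 (SE 0.21, adjusted p = 0.030, and 0.058 after rescaling). Fos and Fosb encode subunits of the AP-1 transcription factor. Fos was at 121, 91.9, 30.0 and 24.2 TPM in SPF and 301, 368 and 251 TPM in F1 (log2 fold change 2.48, SE 0.57, adjusted p = 0.094). Fosb was at 18.1, 15.9, 4.28 and 5.10 TPM and 129, 115 and 72.0 TPM (log2 fold change 3.36, SE 0.51, adjusted p = 0.064). Neither gene overlapped between groups, but the SPF libraries themselves split, replicates 1 and 2 being higher than 3 and 4.

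The promoters of these 3 genes are shown because the cyclic AMP response element is a classical control element of immediate-early genes. The 300 bases run from 250 before the transcript start to 50 after it, from RefSeq on GRCm38.p6, at chr17:26508423-26508722 (minus strand) for Dusp1, chr12:85473640-85473939 (plus strand) for Fos and chr7:19309996-19310295 (minus strand) for Fosb. Capitals mark each TGACGT, the core of the element, on either strand.
Dusp1: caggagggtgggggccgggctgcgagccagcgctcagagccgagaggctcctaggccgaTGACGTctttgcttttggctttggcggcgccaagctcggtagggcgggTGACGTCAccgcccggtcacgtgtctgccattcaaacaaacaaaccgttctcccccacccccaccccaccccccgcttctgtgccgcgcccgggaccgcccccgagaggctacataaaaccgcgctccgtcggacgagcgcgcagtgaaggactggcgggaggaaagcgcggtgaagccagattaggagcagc
Fos: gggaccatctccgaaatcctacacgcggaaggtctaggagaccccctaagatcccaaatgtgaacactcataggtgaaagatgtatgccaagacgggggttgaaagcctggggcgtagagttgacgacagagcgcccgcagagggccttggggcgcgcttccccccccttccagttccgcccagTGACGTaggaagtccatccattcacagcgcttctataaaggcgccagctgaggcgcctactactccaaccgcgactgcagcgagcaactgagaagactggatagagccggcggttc
Fosb: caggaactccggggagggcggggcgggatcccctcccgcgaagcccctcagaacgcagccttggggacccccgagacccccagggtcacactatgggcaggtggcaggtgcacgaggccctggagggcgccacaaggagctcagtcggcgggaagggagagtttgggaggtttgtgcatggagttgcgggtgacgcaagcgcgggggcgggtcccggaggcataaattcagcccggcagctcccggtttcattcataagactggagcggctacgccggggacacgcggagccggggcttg
The Dusp1 window held TGACGT at position 60 and the full TGACGTCA at position 108, which reads the same on both strands and so contains TGACGT on each, overlapping. The Fos window held TGACGT at position 185 and the Fosb window none. TGACGT was found in 7 of the 25 immediate-early genes with a promoter entry (28%), in 13% of 9657 tested genes with an entry, and in 7.51% of all 32851 promoters. TGACGTCA was found in 3 of 25 (12%), in 3.47% of tested genes and in 1.79% of all promoters. The serum response element known as the CArG box was found in 2 of 25 (8%), in 1.67% of tested genes and in 1.63% of all promoters. A match of letters is a description of the window only.

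Other immediate-early members did not pass the test. Atf3, a transcription factor of the stress response, was at 12.2, 42.3, 9.53 and 10.1 TPM in SPF and 90.5, 100.2 and 46.8 TPM in F1 (log2 fold change 2.24, adjusted p = 0.096). Klf2 and Klf4, zinc finger factors of endothelium and epithelium, had log2 fold changes of 1.74 (adjusted p = 0.066) and 2.10 (adjusted p = 0.089). Zfp36, which encodes the mRNA decay factor tristetraprolin, was at 59.2 to 149 TPM in SPF and 361, 325 and 224 TPM in F1 (1.75, adjusted p = 0.084). Junb had 1.12 (adjusted p = 0.096), Jun 1.84 (adjusted p = 0.086) and Egr1 1.94 (adjusted p = 0.11). In all 7 of these genes the F1 libraries lay above the SPF libraries. Jund, the abundant and steady member of the Jun family, had 0.32 (adjusted p = 0.22), a value that was negative after rescaling (-0.04).

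**Figure D3:**
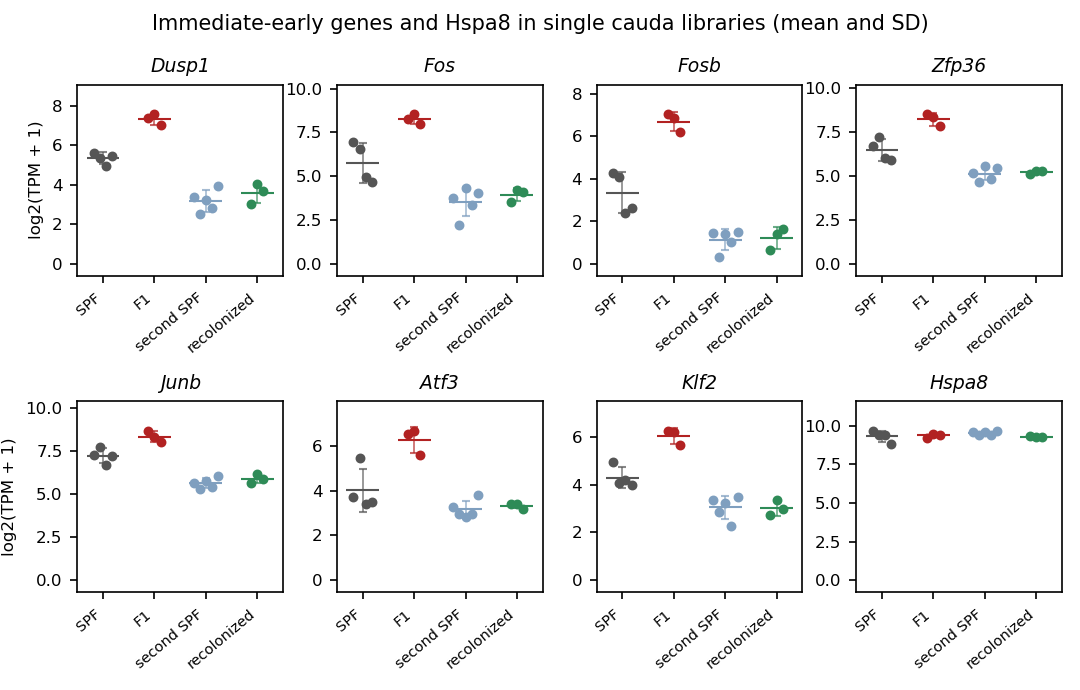
Immediate-early genes and Hspa8 in single cauda libraries, log2(TPM + 1) on the y axis, SPF, F1, SPF set 2 and recolonized on the x axis, 1 point per library with the mean and SD of each group. Dusp1 lay at 128 to 187 TPM in F1, 29.8 to 47.8 TPM in SPF and 4.75 to 14.5 TPM in SPF set 2, while Hspa8 overlapped between SPF and F1.

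The other stress programmes held no called gene. Of all tested genes 0.188% were called, a share at which lists of this size mostly hold none. Heat shock proteins and chaperones, which refold damaged proteins, had 0 of 22 called and a median log2 fold change of 0.17, below that of all genes, and -0.19 after rescaling. Hspa8, Hsp90ab1 and Fkbp4, the most abundant members, had 0.07, 0.18 and -0.02. The unfolded protein and integrated stress list had 0 of 27 called and a median of 0.08. Within it Ern1, which encodes the endoplasmic reticulum sensor IRE1, was at 2.45 to 8.76 TPM in SPF and 19.5, 23.1 and 28.9 TPM in F1 (1.79, adjusted p = 0.087), while its substrate Xbp1 had 0.15. Oxidative stress genes and metallothioneins had 0 of 21 called and a median of 0.11, p53 targets 0 of 10 and -0.07, and hypoxia genes 0 of 11 and 0.27. Genes induced by glucocorticoids had 0 of 9 called and a median of 0.76, with Per1, a clock gene, at 19.1 to 26.4 TPM in SPF and 35.5 to 42.7 TPM in F1 (0.78, adjusted p = 0.086) and Fkbp5 at -0.05.

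In the immune content, complement C3 was the only called gene, while the 16 tested macrophage markers, 7 MHC class II genes and 6 mast cell genes all had a positive log2 fold change without being called. Of all tested genes 79.29% had a positive value and 0.188% were called. C3, the central protein of the complement cascade (chr17:57203967-57228136), rose from 32.7, 14.8, 20.2 and 23.6 TPM to 121, 148 and 99.6 TPM (log2 fold change 2.42, SE 0.27, adjusted p = 0.036), and the groups did not overlap. Against SPF set 2, at 18.8 to 59.8 TPM, its log2 fold change was 2.11 (adjusted p = 0.011). Of 14 tested complement genes, 13 had a positive value, with a median of 1.34. C4b (1.48, adjusted p = 0.10), Cfb (1.34, adjusted p = 0.14) and Clu, which encodes the abundant luminal chaperone clusterin (1.56, adjusted p = 0.12), had no overlap between groups. In 8 of 14 complement genes (57.1%) every F1 library lay above every SPF library, beside 22.0% of all genes.

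Macrophage markers had 0 of 16 called, 16 of 16 positive, a median of 0.84 and no overlap between groups in 11 of 16 (68.8%, beside 22.0% of all genes). They summed to 258.7 to 527.8 TPM in SPF and 749.4 to 855.2 TPM in F1. SPF set 2 (220.3 to 449.8 TPM) and the recolonized caudae (272.8 to 352.3 TPM) were also below F1. Lyz2, the lysozyme of macrophages and neutrophils, was at 97.8, 31.8, 67.1 and 69.6 TPM in SPF and 188, 176 and 148 TPM in F1 (1.45, adjusted p = 0.096). C1qa and C1qb, subunits of the complement starter C1q made by tissue macrophages, had 0.56 (adjusted p = 0.23) and 0.85 (adjusted p = 0.18). SPF replicate 2 was the lowest SPF library in all 3 of these genes. With SPF set 2 as the control, 13 of 16 macrophage markers were called higher, beside 13.7% of all genes. A separate list of activated and lipid-laden macrophage genes had 0 of 11 called, 10 of 11 positive, a median of 0.80 and no overlap in 5 of 11 (45.5%). The exception was Gpnmb, a glycoprotein of lysosome-rich macrophages, at 152 to 189 TPM in SPF and 91.2, 149.8 and 199.6 TPM in F1 (-0.28, adjusted p = 0.54).

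MHC class II genes, which present antigen on macrophages, dendritic cells and B cells, had 0 of 7 called and a median of 1.03. H2-Ab1 was at 96.4, 45.1, 82.0 and 88.9 TPM in SPF and 170, 230 and 156 TPM in F1 (1.27, adjusted p = 0.093). H2-Aa had 1.08 (adjusted p = 0.11) and Cd74, the invariant chain, 1.13 (adjusted p = 0.097), and in these 3 genes the groups did not overlap. With H2-Eb1, every F1 library lay above every SPF library in 4 of 7 (57.1%), beside 22.0% of all genes. H2-DMa, H2-DMb1 and H2-Oa overlapped. Against SPF set 2, 7 of 7 were called higher, beside 13.7% of all genes. The MHC class I list had 0 of 8 called and a median of 0.54. Mast cell genes had 0 of 6 called, 6 of 6 positive (79.29% of all genes) and a median of 1.40. The list summed to 43.5 to 59.5 TPM in SPF and 106 to 123 TPM in F1, most of it Gata2. That gene alone was at 38.9 to 54.0 TPM in SPF and 85.6 to 91.9 TPM in F1. Cma1 and Mcpt4 encode mast cell chymases. Cma1 was at 1.08, 0.16, 0.17 and 0.60 TPM in SPF and 3.23, 3.52 and 3.51 TPM in F1 (1.60, adjusted p = 0.058), and Mcpt4 was at 0 to 0.37 TPM and 1.78, 3.87 and 2.41 TPM (1.63, adjusted p = 0.058).

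Few lymphocyte and neutrophil genes could be tested. Only 4 of 18 T and NK cell genes and 2 of 10 B and plasma cell genes reached the filter, with medians of 0.41 and 0.35 and 0 called. Nkg7, of cytotoxic granules, was at 1.11 to 1.66 TPM in SPF and 2.25, 2.74 and 1.83 TPM in F1 (0.45, adjusted p = 0.17). Cd3g was at 0.71 to 1.42 TPM in SPF and 1.71, 3.03 and 2.09 TPM in F1 (0.68, adjusted p = 0.11). In these 2 of 4 T and NK cell genes (50%) every F1 library lay above every SPF library, beside 22.0% of all genes. Lck had 0.37 and Ptprcap 0.37, both overlapping. The 4 tested neutrophil genes had a median of -0.18. Interferon-stimulated genes had 0 of 21 called and a median of 0.61 (0.32 after rescaling). Their most abundant members Bst2, Ifi27l2a and Irf9 had -0.01, 0.26 and 0.45, and all 3 overlapped between groups.

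Among cytokines and chemokines 0 of 19 were called and 19 of 19 had a positive value, beside 79.29% of all genes, with a median of 0.97. Cxcl1, a neutrophil attractant that is itself an early response gene, had the largest. It was at 1.64, 2.95, 0.58 and 0.69 TPM in SPF and 22.2, 23.6 and 7.35 TPM in F1, with no overlap (log2 fold change 2.87, SE 0.47, adjusted p = 0.068), and it was 0.16 to 0.67 TPM in SPF set 2. The more abundant Cxcl12, a stromal chemokine, had 1.11 (adjusted p = 0.080), Cx3cl1 0.76 (adjusted p = 0.083) and Cxcl14 0.68 (adjusted p = 0.20). The first 2 of these did not overlap between groups and Cxcl14 did. In 10 of 19 genes of the list (52.6%) every F1 library lay above every SPF library, beside 22.0% of all genes.

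**Figure D4:**
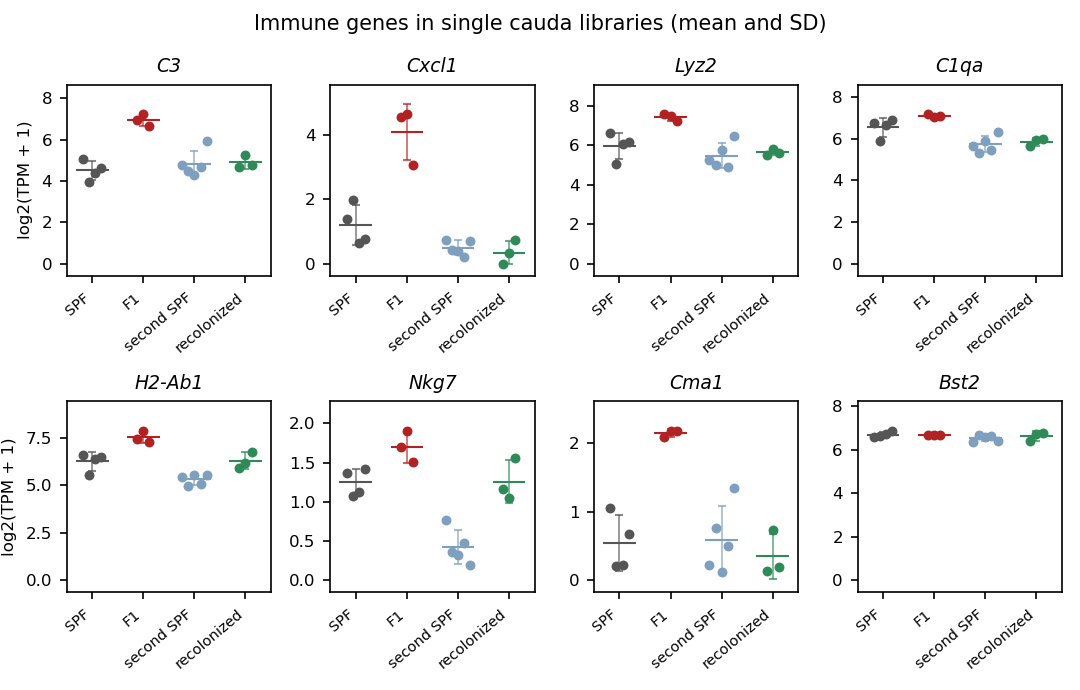
Immune genes in single cauda libraries, log2(TPM + 1) on the y axis, SPF, F1, SPF set 2 and recolonized on the x axis, 1 point per library with the mean and SD of each group. C3 lay at 99.6 to 148 TPM in F1 and 14.8 to 32.7 TPM in SPF, Cma1 at 3.23 to 3.52 TPM and 0.16 to 1.08 TPM, and Bst2 overlapped.

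Adult beta globins rose. Hbb-bs was at 51.0, 14.7, 22.8 and 31.5 TPM in SPF and 185, 273 and 234 TPM in F1 (log2 fold change 3.02, SE 0.39, adjusted p = 0.044). Its near-identical neighbour Hbb-bt, with which reads may be shared, was at 10.3, 4.41, 8.69 and 9.36 TPM and 52.1, 43.1 and 47.6 TPM (log2 fold change 2.45, SE 0.27, adjusted p = 0.030). Hba-a2 had 2.74 (adjusted p = 0.080), and all 3 globin genes were without overlap, F1 being higher, beside 22.0% of all genes. Alas2, the haem synthesis enzyme of erythroid cells, was at 2.97 to 3.52 TPM in SPF and 2.31 to 4.23 TPM in F1 (-0.01). Globin transcripts can come from blood left in the tissue, which was not tested here. The erythroid list summed to 41.3 to 142 TPM in SPF and 545 to 742 TPM in F1. In the caput the list sum was also higher, at 148 to 266 TPM in SPF and 842 to 1372 TPM in F1. There Alas2 did not overlap between groups, at 0.91 to 0.98 TPM in SPF and 3.12 to 3.90 TPM in F1.

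The remaining called genes were of mixed function, and each was also called against SPF set 2. Aebp1, a secreted collagen-binding protein of fibroblasts and smooth muscle, rose from 27.1, 19.5, 30.9 and 26.4 TPM to 89.9, 108 and 90.9 TPM (log2 fold change 1.86, SE 0.19, adjusted p = 0.030). Cldn2, a claudin that forms cation and water pores, rose from 1.16, 0.90, 0.85 and 0.58 TPM to 6.87, 4.47 and 5.60 TPM (1.82, SE 0.18, adjusted p = 0.030). Arsa, the lysosomal arylsulfatase A, rose from 6.20 to 8.46 TPM in SPF to 19.1 to 22.0 TPM in F1 (1.38, SE 0.17). Mid1, a ubiquitin ligase on microtubules at the pseudoautosomal boundary of the X chromosome, rose from 0.57 to 1.39 TPM to 4.41 to 5.39 TPM (1.61, SE 0.20). The others were Fads6 (1.49), Cyp2s1, a cytochrome P450 (1.46), Evi5l (1.31) and Tep1, a telomerase-associated protein (1.12), with adjusted p of 0.030 to 0.050.

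Erdr1, Entpd4 and Nnt, which the study discusses for GF tissues, were examined in the F1, whose fathers were GF. The study also reported Erdr1 and Entpd4 as higher in Rag2 knockout epididymis, so they are not particular to GF mice. The mean log2(TPM + 1) of the 3 genes was 5.507 to 6.116 in Rag2 knockout caudae. It was 5.697 to 5.995 in GF and 3.235 to 3.639 in SPF caudae. Erdr1, a pseudoautosomal gene near Mid1, was listed at 0, 0.12, 0 and 0 TPM in SPF and at 24.3, 9.32 and 3.22 TPM in F1 (log2 fold change 3.33, adjusted p = 0.066). It was at 0 TPM in all 5 libraries of SPF set 2, at 23.6 to 71.6 TPM in the recolonized caudae and at 74.6 to 170 TPM in the GF caudae. The F1 libraries lay between the SPF sets and the GF caudae. Entpd4, a nucleotidase of the Golgi, was at 147, 148, 146 and 109 TPM in SPF and 224, 173 and 245 TPM in F1 (0.63, adjusted p = 0.12), and at 255 to 339 TPM in GF. Nnt, a mitochondrial transhydrogenase that is truncated in some C57BL/6 substrains, was at 6.55 to 12.1 TPM in SPF, 6.83 to 11.8 TPM in F1 (0.02) and 3.94 to 5.45 TPM in GF. The F1 and SPF ranges of Nnt overlapped.

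Other cell types and regions of the duct were read from fixed marker lists, and none had a called gene, beside 0.188% of all tested genes. Sperm and spermatid genes had 21 of 21 positive, beside 79.29% of all genes, and a median of 1.46. They summed to 59.6 to 1989 TPM in SPF and 1431 to 2339 TPM in F1. SPF replicate 4 was the lowest, and without it the median was 0.84. The 5 tested caput epithelium markers had a median of 1.12, which was -0.71 without F1 replicate 1. Adipocyte genes had a median of 1.55 and 0.71 without F1 replicate 1. Smooth muscle genes, of the duct wall, had a median of 0.64 (0.28 after rescaling) and summed to 4419 to 7058 TPM in SPF and 6044 to 10660 TPM in F1. Fibroblast and matrix genes had a median of 0.64, led by Dpt, which encodes dermatopontin, at 1.97 to 10.8 TPM in SPF and 35.7, 56.3 and 37.7 TPM in F1 (2.89, adjusted p = 0.063). Cell proliferation genes went the other way: 12 of 14 had a negative value and the median was -0.75, with Birc5 the lowest at -1.55 (adjusted p = 0.21). In 0 of 14 every F1 library lay below every SPF library, beside 3.06% of all genes. Their mean log2(TPM + 1) overlapped, at 1.765 to 3.469 in SPF and 1.717 to 2.279 in F1.

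Beta-defensins, antimicrobial peptides that coat sperm and are made region by region along the duct, were examined after their values had been seen. Of 31 tested, 0 were called, 25 had a negative value and in 10 every F1 library lay below every SPF library, beside 3.06% of all genes below and 79.29% of all genes with a positive value. Their median log2 fold change was -0.45. Defb39 was at 964, 745, 806 and 648 TPM in SPF and 312, 291 and 392 TPM in F1 (-1.25, adjusted p = 0.064), below these SPF libraries throughout. SPF set 2 held 384, 323, 650, 527 and 622 TPM of Defb39, which overlapped F1. Defb28, an abundant one, was at 15546 to 20256 TPM and 11019 to 12075 TPM (-0.60, adjusted p = 0.10). Defb40 was at 2338 to 3580 TPM and 1275 to 1618 TPM (-0.91, adjusted p = 0.089). For both, SPF set 2 was also above F1, at 14010 to 23302 TPM of Defb28 and 2359 to 3159 TPM of Defb40. Defb22 was at 1131, 442, 1127 and 293 TPM in SPF but at 7.63, 0.84 and 289 TPM in F1 (-5.26, adjusted p = 0.12), and in SPF set 2 it ranged from 8.98 to 1103 TPM.

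**Figure D5:**
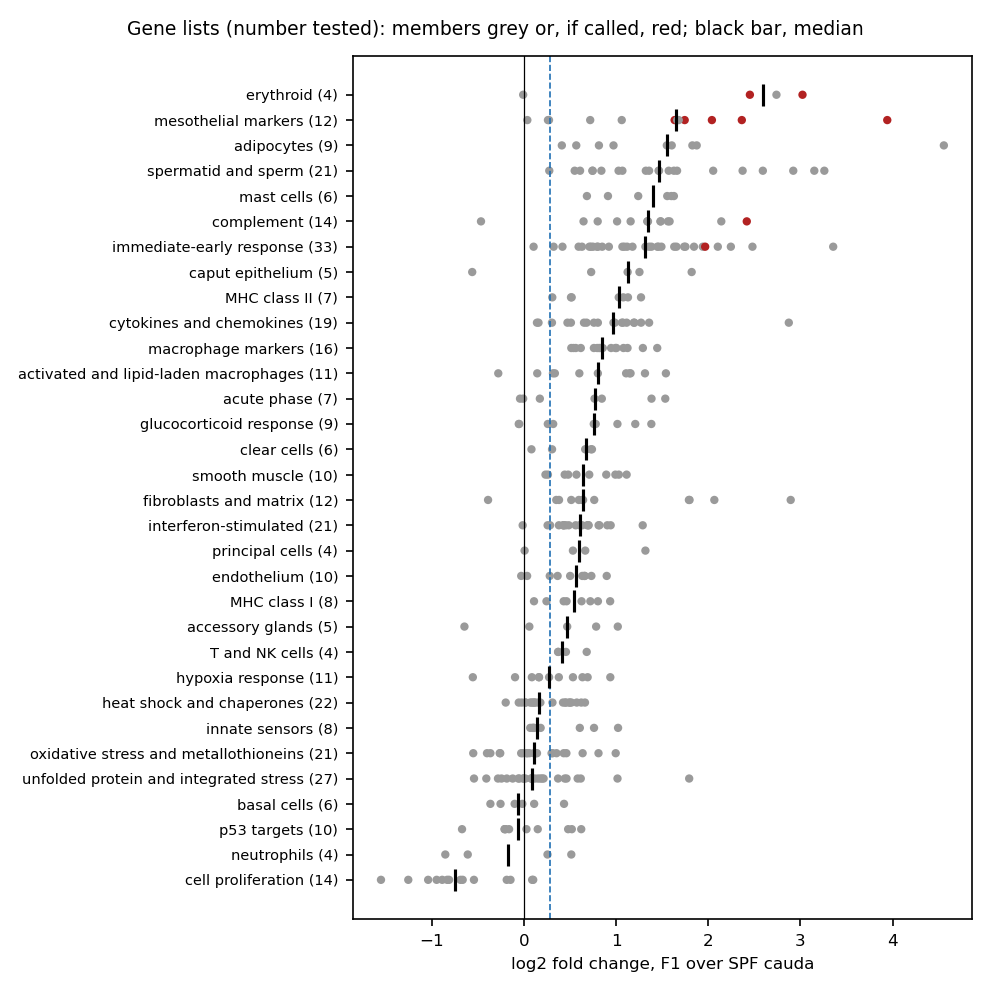
Log2 fold change in F1 over SPF cauda on the x axis for the tested members of each fixed gene list on the y axis, with the number tested in parentheses, called members in red, list medians as black bars and the median of all genes as a dashed line. The erythroid (2.60) and mesothelial (1.65) medians lie farthest right and the proliferation median (-0.75) farthest left, beside 0.28 for all genes.

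Whether the cauda differed from the caput was asked by a contrast of the F1 difference in the cauda with that in the caput. These differences share no library with each other. It called 21 of 12787 genes, 0.164%, of which 18 were positive and 3 negative. Of the 24 genes above, 9 were among them. The contrast holds the same cauda libraries from which the 24 were picked, so this overlap is partly built in. Lgals2 had the lowest adjusted p, with a difference of 3.04 (SE 0.26, adjusted p = 0.00042), being at 0.37 to 1.06 TPM in SPF caput and listed at 0 TPM in all 3 F1 caput libraries. Grp (3.57, SE 0.45), Upk3b (3.20, SE 0.39), Prrt1 (2.49, SE 0.31) and Tspan8 (2.47, SE 0.30) each had an adjusted p of 0.0073. Upk3b was at 0.08 to 1.15 TPM in SPF caput and 0.89 to 2.08 TPM in F1 caput. The others were Myoc (2.97), Msln (2.04), Cldn15 (2.05) and Dusp1 (1.51). Fosb, which was not called in the cauda alone, was called in this contrast (3.32, SE 0.56, adjusted p = 0.041), with 0.16 to 0.51 TPM in SPF caput and 0.24 to 0.45 TPM in F1 caput. Such low caput levels leave little room for a caput difference on this scale. For Fosb the contrast therefore mostly restates the cauda difference of 3.36. The globins did not pass this test (Hbb-bs 0.64, SE 0.50, adjusted p = 0.71), and C3 did not pass it (1.37, adjusted p = 0.12), being at 13.7 to 20.1 TPM in SPF caput and 35.2 to 37.0 TPM in F1 caput. Leaving out 1 library gave 5 to 78 calls. The count was 5 without F1 cauda replicate 2, 53 without F1 cauda replicate 1, 78 without F1 cauda replicate 3 and 38 without SPF cauda replicate 1. It was 6 to 9 without SPF caput replicates 1, 2 or 3, F1 caput replicates 2 or 3, or SPF cauda replicate 3, 11 without SPF caput replicate 4 and 13 without SPF cauda replicate 4.

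Recolonized mice carry the genome of a GF colony but were bred conventionally, so a contrast of the F1 difference with theirs bears on what F1 males did not share with them. It called 21 of 12790 genes, 0.164%, of which 17 were positive and 4 negative, and 7 of the 24 genes were among them. The 24 were picked from the same F1 and SPF cauda libraries, so here too the overlap is partly built in. Lgals2 (2.67, SE 0.32, adjusted p = 0.0039), Grp (4.31, SE 0.65, adjusted p = 0.025) and Prrt1 (3.08, SE 0.47, adjusted p = 0.025) were called here as in the caput contrast. Recolonized caudae held 1.10 to 2.18 TPM of Grp and 0.12 to 1.34 TPM of Prrt1. Wt1 (2.00), Aebp1 (1.68), Cyp2s1 (1.43) and Tep1 (0.97) were also called, as was Cxcl1 (3.02, SE 0.51, adjusted p = 0.032), which the F1 comparison alone did not call. Upk3b did not pass (4.33, SE 0.92, adjusted p = 0.11). On the negative side, AA467197, the mouse NMES1 gene, had -6.35 (SE 0.40, adjusted p = 2.6e-06): it was at 0.96 to 2.66 TPM in SPF and 1.64 to 4.04 TPM in F1, but at 325, 451 and 327 TPM in the recolonized caudae. The gene 1810044D09Rik had -1.05 (SE 0.18, adjusted p = 0.032), at 104 to 121 TPM in SPF and 57.1 to 76.0 TPM in F1. Leaving out 1 library gave 4 to 71 calls. The count was 71 without F1 replicate 1, 4 without F1 replicate 2 and 32 without SPF replicate 1. It was 6 without SPF replicate 3, 5 to 8 without SPF set 2 replicates 1, 2 or 3 or recolonized replicate 1, and 13 to 14 without SPF replicate 4, SPF set 2 replicate 5 or recolonized replicates 2 or 3.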

How the data were processed

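Whole caudae and caputs were profiled by RNA sequencing of polyadenylated RNA. Per the labels and methods, 1 μg of RNA entered an Illumina stranded kit and paired 50 bp reads were quantified on mm10 with RSEM. The authors deposited TPM per gene, which sum to the same total in each library. No counts were used here, so the depth is unknown and no counting interval is given. From the deposited values, log2(TPM + 1) was fitted with limma 3.58.1 in R 4.3.3 (moderated test, 2-sided, p adjusted over all tested genes), after a filter at a mean of 1 TPM. The code was tested on simulated data. The members of the comparison, the 36 gene lists and the tests were chosen with earlier results of these data known, so no list is independent support. Genes named were the 12 called with the largest change each way (filled by lowest p where fewer were called), called and abundant list members, Erdr1, Entpd4 and Nnt, and the leading genes of each contrast. The 9 other called genes, 17 further list members and values for single list members, the muscle and the beta-defensin genes were added after their values were seen. GF cauda replicate 4, a swollen cauda that the study set aside, was left out. Coordinates and promoters are from RefSeq on GRCm38.p6, in which 12159 of the tested genes matched by symbol. Alternatives were a pseudocount of 0.1, other filters, rescaling, a mean-variance trend, array weights, a replicate block, other SPF controls and leaving out each library. The fit with F1 replicate 3 alone was added after seeing the data. The limma p-values set a group difference against the spread between libraries, an estimate drawn toward that of all tested genes. They cannot separate group from run or litter.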

Additional observations from a re-analysis of the deposited data

Results flagged for a closer look

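In 7 of the named genes, 81 of which were tested in F1 against SPF cauda, 1 of the 4 SPF cauda libraries lay far from the other 3. The test used marks about 1 in 20 groups by chance. SPF replicate 1 was high in Msln, at 0.98 TPM. SPF replicate 2 was high in Lgals2 (0.34 TPM), Erdr1 (0.12 TPM) and Atf3 (42.3 TPM) and low in Aldh1a2 (8.26 TPM). For Lgals2 and Erdr1 the other 3 SPF libraries were listed at 0 TPM, where the test marks any single value above 0. SPF replicate 4 was high in Ptprcap (3.75 TPM) and low in Entpd4 (109 TPM).

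The F1 difference in the cauda was not that in the caput, by the contrast of both in limma, for 10 named genes. The log2 difference, cauda minus caput, was 3.57 for Grp, 3.32 for Fosb, 3.20 for Upk3b, 3.04 for Lgals2, 2.97 for Myoc, 2.49 for Prrt1, 2.47 for Tspan8, 2.05 for Cldn15, 2.04 for Msln and 1.51 for Dusp1. All 10 were positive, and the caput libraries of both groups were under 3 TPM for Grp, Fosb, Upk3b, Lgals2, Myoc, Tspan8, Cldn15 and Msln.

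The F1 difference was not that of recolonized mice against SPF set 2 for 10 named genes. The log2 difference, F1 minus recolonized, was 4.31 for Grp, 3.08 for Prrt1, 3.02 for Cxcl1, 2.67 for Lgals2, 2.00 for Wt1, 1.68 for Aebp1, 1.43 for Cyp2s1 and 0.97 for Tep1. It was -1.05 for 1810044D09Rik and -6.35 for AA467197. The value of AA467197 came from the recolonized caudae, whose 3 libraries held 325 to 451 TPM against 1.14 to 3.80 TPM in SPF set 2, while GF caudae ranged from 0.52 to 374 TPM.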

How the results depend on the processing

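Higher and lower calls in F1 against SPF cauda were 22 and 2. They were 0 and 0 with a pseudocount of 0.1, 7 and 1 with no filter, 23 and 2 at a mean of at least 5 TPM, 25 and 4 with a mean-variance trend, 1344 and 108 with array weights (whose estimation stopped before convergence), 1314 and 76 with all cauda groups in 1 fit, 1782 and 178 against SPF set 2, 1320 and 48 against both SPF sets, and 1 and 2 for F1 replicate 3 alone. Leaving out 1 library gave 2 to 12 and 0 to 2. The caput contrast, 21 calls, gave 10 with a pseudocount of 0.1, 37 with no filter, 13 at 5 TPM, 228 with array weights and 5 to 78 leaving out 1 library. The recolonized contrast, 21 calls, gave 13 with a pseudocount of 0.1, 13 at 5 TPM, 11 after rescaling, 1295 with array weights and 4 to 71. The cause of these shifts was not tested.

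With the replicate block, which drops SPF replicate 4, calls were 0 and 0, and 2 and 4 in the contrasts. With caput and cauda of 1 number taken as 1 animal, the caput contrast gave 12. Same-numbered F1 and SPF libraries did not deviate in the same direction (correlations of -0.534, 0.0121 and -0.06). So few correlations cannot settle whether the numbers pair them. All 24 called genes kept their direction in every such setting, except that 2 could not be tested for F1 replicate 3 alone and 7 fell under the filter at 5 TPM.

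Uncalled genes that changed sign were, after rescaling, Krt7 (-0.088), Aldh1a2 (-0.081), Jund (-0.039), Hsp90ab1 (-0.18), Hspa8 (-0.30), Ifi27l2a (-0.10) and Nnt (-0.30). Hspa8 was -0.010 with array weights. In the replicate block Hspa8 was -0.11, Fkbp4 0.039, Bst2 0.041 and Nnt -0.13. Against SPF set 2 they were -0.16, 0.27, 0.17 and -0.13, and against both SPF sets -0.061, 0.14, 0.087 and -0.063. Leaving out 1 library, Hspa8 ran from -0.11 to 0.18, Fkbp4 from -0.16 to 0.090, Bst2 from -0.052 to 0.041 and Nnt from -0.13 to 0.24. AA467197 was -0.010 for F1 replicate 3 alone.

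With 3 and 4 animals, TPM without counts and no stated run, an uncalled gene is not thereby unchanged. Small differences in low genes were not detectable here. Large differences in abundant genes also missed the call in limma, as for Fos (log2 fold change 2.48, adjusted p = 0.094) and Clu (1.56, adjusted p = 0.12).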
